A study of Mus musculus with 4 samples.

Results

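The genes described here build the Z-disc, titin and the M-band of the heart muscle sarcomere, together with the factors that cap the thin filaments, fold myosin and turn the sarcomere over. They were taken from a fixed list of 33 gene symbols, all of which were found, on 1 row each, among the 23847 rows of the deposited expression table. It covers 4 RNA-seq libraries, all of ventricular polyadenylated RNA of C57BL/6 males at postnatal day 21. In 2 libraries the mice overexpressed Cdk8, the kinase of the Mediator complex, specifically in the heart (Cdk8Tg), and 2 libraries came from wild-type mice (WT). The sources used here do not name the promoter of the transgene, nor do the labels say outright that each library is a separate animal. P-values thus measure the spread between these libraries, which may be technical.

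A sarcomere is bounded by Z-discs, where thin actin filaments of opposite polarity are crosslinked by alpha-actinin, and centred on the M-band, where thick myosin filaments are crosslinked by myomesins. Titin is the giant elastic protein that runs from the one to the other, and telethonin (Tcap) caps its Z-disc end. Many Z-disc proteins of the ventricle are PDZ-LIM or calsarcin family adaptors that also bind signalling enzymes, and variants in several of these genes are known causes of cardiomyopathy.

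Cdk8 measured 7309 and 8122 FPKM in Cdk8Tg against 7.89 and 9.86 FPKM in WT, as the labels have it. FPKM values are sequenced fragments per kilobase of transcript and per unit of library size. From the spacing of very low values, the libraries held roughly 11800000 to 14000000 fragments each, provided that each was scaled by its own total, which the sources do not state. The summed level of 7 ventricular cardiomyocyte markers was 36489 and 35136 FPKM in Cdk8Tg and 54728 and 52409 FPKM in WT, with 5 of the 7 called lower and 0 higher. Skeletal muscle markers were close to absent, with sums of 1.90 to 3.09 FPKM over 9 genes and Myod1 listed at 0 in every library. Fibroblast markers summed to 794 and 986 FPKM in Cdk8Tg and 637 and 622 FPKM in WT, with 5 of 6 called higher. Smooth muscle markers summed to 437 and 738 FPKM against 354 and 357 FPKM, with 1 of 5 called higher and 1 lower. The rise was Cnn1 (48.1 and 80.5 against 1.34 and 1.70 FPKM) and the fall Smtn (34.6 and 28.9 against 44.7 and 41.0 FPKM). Acta2, which made up most of the sum (317 and 513 against 266 and 268 FPKM), was not called. Myh11 and Tagln had overlapping groups and were not called either. Atrial markers varied by library rather than by group, at 83.8 and 347 FPKM in Cdk8Tg against 277 and 28.1 FPKM in WT over 5 genes, of which Bmp10 was listed at 0 throughout. Endothelial markers summed to 198 to 228 FPKM with none of 5 called, macrophage markers to 78.9 and 98.8 FPKM in Cdk8Tg and 120 and 111 FPKM in WT with 1 of 4 tested called lower, and red blood cell markers to 1834 to 3758 FPKM with none of 4 called. In tissue RNA, fewer cells of a type and less RNA per cell cannot be told apart, and the part of these marker differences in the results below was not tested.

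**Figure D1:**
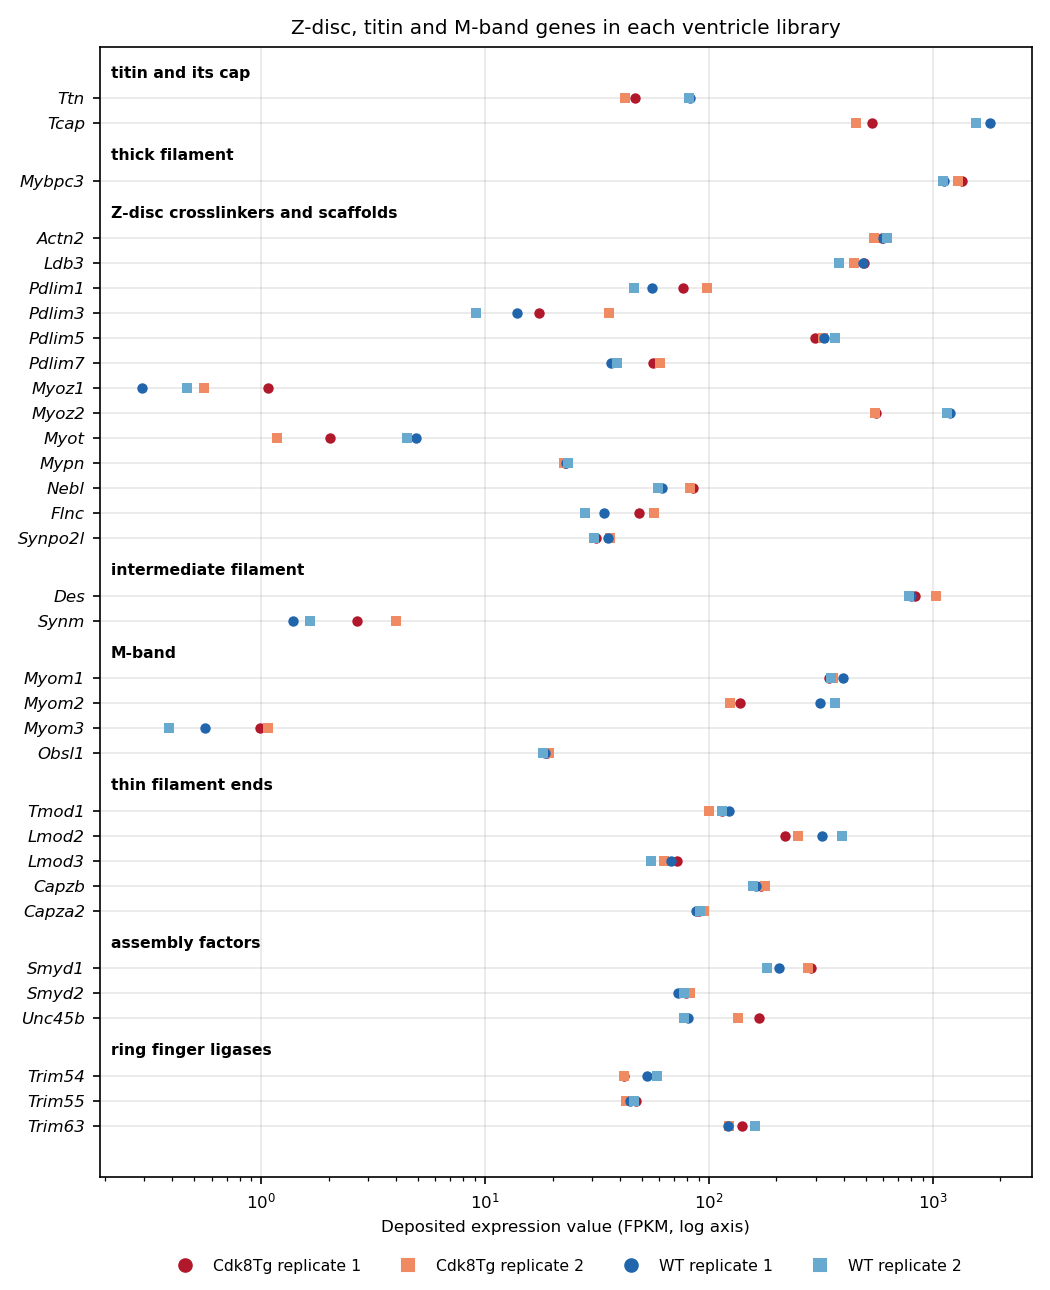
Deposited expression value of each gene in each library (FPKM, log axis), grouped by role. Red and orange symbols are Cdk8Tg, dark and light blue symbols WT, circles replicate 1 and squares replicate 2. Tcap and Myom2 show the widest gaps between the groups among the abundant genes, while Actn2, Mypn, Obsl1 and Capza2 lie nearly on top of each other.

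The genes changed in both directions, in equal number on the deposited scale, though not under every alternative (12 rises and 5 falls with an equal FPKM sum per library, where 41.2% and 5.49% of all rows rose and fell, and 0 and 2 without WT replicate 2, where 1.22% and 1.19% did). Of 33 genes, 31 had a mean of at least 1 FPKM over the 4 libraries and were tested with limma on log2(FPKM + 1), and Myoz1 and Myom3 fell below that level. A gene was called at a Benjamini-Hochberg adjusted p under 0.05 over all 11888 rows tested. The calls were 7 rises (Unc45b, Synm, Pdlim1, Flnc, Pdlim7, Smyd1 and Nebl) and 7 falls (Tcap, Myom2, Myot, Myoz2, Ttn, Lmod2 and Trim54), with 17 genes not past the threshold. Rises made up 22.6% of the tested genes, against a background of 16.9% of all rows, and falls made up 22.6%, against 7.98%. The list was chosen with earlier results of these data known, so these shares describe it and are not a test. The median log2 change was 0.05, against 0.13 over all rows. Groups did not overlap for 24 of the 31 genes (77.4%), against 70.3% of all rows. As the background itself leaned towards rises, the counts were repeated after median-of-ratios scaling, which set the median of all rows to 0.00. It gave 6 rises and 7 falls, against 7.96% and 11.7% of all rows. Falls reached further than rises: the strongest called fall was 3.39-fold (Tcap) and the strongest called rise 2.21-fold (Synm), as ratios of group means. In WT the most abundant of these transcripts per length were Tcap, Myoz2, Mybpc3 and Des, in that order. In Cdk8Tg the order began with Mybpc3, Des, Actn2 and Myoz2, and Tcap came after these 4.

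**Figure D2:**
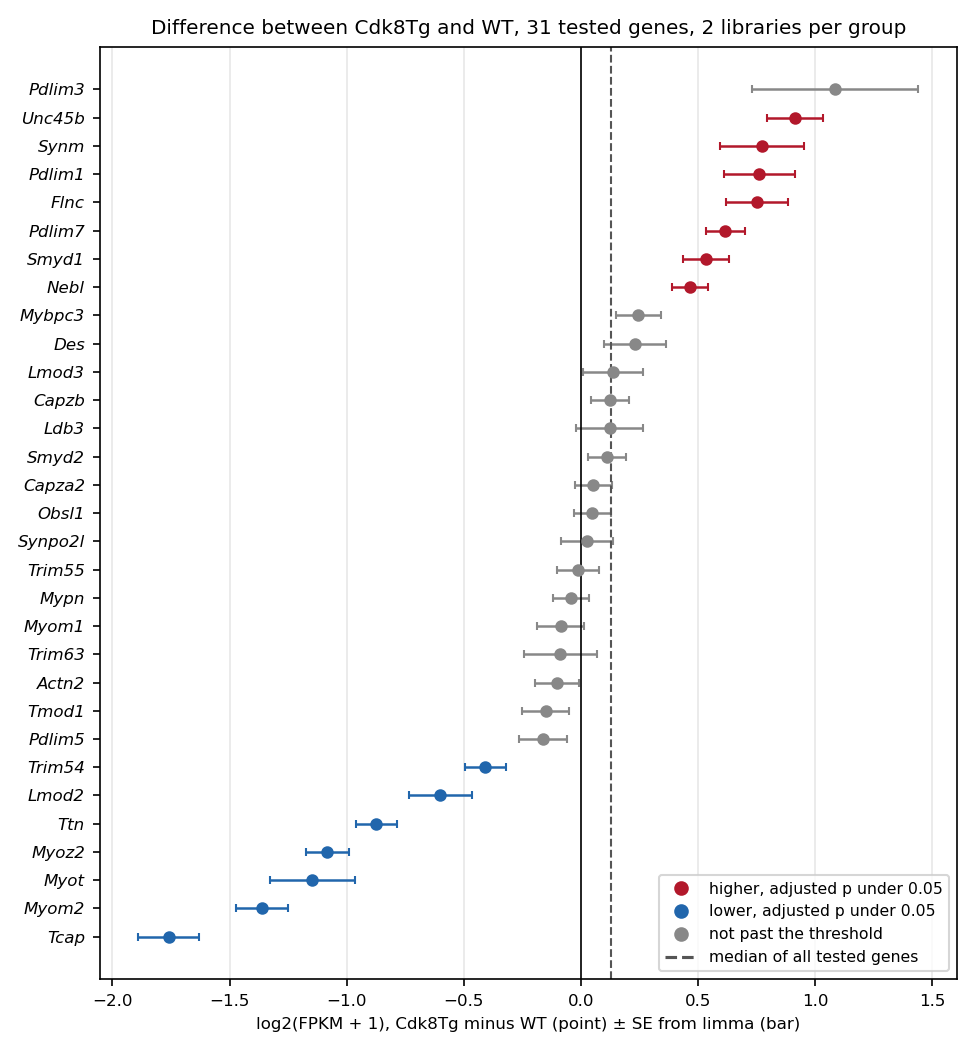
Difference in log2(FPKM + 1) between Cdk8Tg and WT for the 31 tested genes, with the standard error from limma as bars. Blue points are called falls, red points called rises and grey points not past the threshold. The dashed line marks the median of all tested rows at 0.13. Tcap lies lowest at -1.76, and Pdlim3, which is grey, lies highest at 1.09 with the widest bar.

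Promoter sequences are shown for 3 genes that fell (Ttn, Myoz2 and Lmod2) and 2 that rose (Unc45b and Smyd1), as examples of genes that moved each way. They are RefSeq sequences on GRCm38.p6, 5′ to 3′ on the gene's own strand, from 250 bases before to 50 bases after the start. Capitals mark matches to the motifs named below.
Ttn (chr2:76982498-76982797, minus strand): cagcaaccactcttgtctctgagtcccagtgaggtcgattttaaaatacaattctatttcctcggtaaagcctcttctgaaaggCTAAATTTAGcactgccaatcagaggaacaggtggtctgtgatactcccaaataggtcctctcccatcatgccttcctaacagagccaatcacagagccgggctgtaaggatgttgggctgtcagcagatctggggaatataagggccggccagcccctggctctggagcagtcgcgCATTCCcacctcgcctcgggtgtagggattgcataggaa
Myoz2 (chr3:123034938-123035237, minus strand): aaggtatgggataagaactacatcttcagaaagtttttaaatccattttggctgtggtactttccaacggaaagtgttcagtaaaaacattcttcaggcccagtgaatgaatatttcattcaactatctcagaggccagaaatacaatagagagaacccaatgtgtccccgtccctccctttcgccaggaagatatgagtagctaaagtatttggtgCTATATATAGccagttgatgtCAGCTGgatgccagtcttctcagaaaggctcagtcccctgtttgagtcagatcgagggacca
Lmod2 (chr6:24597521-24597820, plus strand): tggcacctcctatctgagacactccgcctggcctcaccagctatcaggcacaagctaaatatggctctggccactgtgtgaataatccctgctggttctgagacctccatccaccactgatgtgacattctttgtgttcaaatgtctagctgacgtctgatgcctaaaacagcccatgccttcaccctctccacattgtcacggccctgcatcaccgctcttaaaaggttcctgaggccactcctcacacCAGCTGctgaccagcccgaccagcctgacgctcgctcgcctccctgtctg
Unc45b (chr11:82911003-82911302, plus strand): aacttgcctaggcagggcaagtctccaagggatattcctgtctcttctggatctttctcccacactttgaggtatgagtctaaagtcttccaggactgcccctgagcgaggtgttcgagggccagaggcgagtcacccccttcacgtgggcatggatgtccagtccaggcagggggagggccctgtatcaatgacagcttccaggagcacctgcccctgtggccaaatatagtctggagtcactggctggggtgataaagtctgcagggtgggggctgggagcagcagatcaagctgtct
Smyd1 (chr6:71262232-71262531, minus strand): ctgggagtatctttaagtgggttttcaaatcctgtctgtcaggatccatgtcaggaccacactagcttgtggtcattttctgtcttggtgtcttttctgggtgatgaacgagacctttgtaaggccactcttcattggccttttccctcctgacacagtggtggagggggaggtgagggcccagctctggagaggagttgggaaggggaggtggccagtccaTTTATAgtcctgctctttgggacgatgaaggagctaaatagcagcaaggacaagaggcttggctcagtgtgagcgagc
Promoter entries existed for 27 of the 33 genes, 34 entries in all, and not for Tcap, Myoz1, Myot, Myom2, Lmod3 and Trim55. They were searched on both strands for the MEF2 and CArG box consensus and for CATTCC, the M-CAT element. The other searches were for CAGCTG, which is an E-box, and for TATAAA, the core of the TATA box. A TATAAA match can lie inside a MEF2 match. MEF2 matches occurred in 6 of the 34 entries, against 3.19% of the 32851 promoters of the table. The genes were Ttn and Myoz2, which fell, Mybpc3 and Synpo2l, which were not called, and Myom3, which was not tested. In Myoz2 the match CTATATATAG begins 33 bases before the start, and in Ttn the match CTAAATTTAG begins 166 bases before it. CArG matches occurred in 4 entries, of Nebl, Ldb3 and Myom1, against 1.63% of all promoters. CATTCC was found in 9 entries and CAGCTG in 9, against 14.7% and 16.3% of all promoters, and TATAAA in 4, against 13.6%. Entries of the same gene can overlap and were counted separately. The Ldb3 entries thus share the same CArG site, and the Flnc entries the same CATTCC site. No match to any of the 5 motifs lay in the Unc45b window. A match describes letters and does not show that a factor binds.

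Titin and its cap were both lower in Cdk8Tg. Ttn measured 46.7 and 42.1 FPKM in Cdk8Tg against 82.5 and 81.7 FPKM in WT. The WT libraries nearly coincided and lay well above both Cdk8Tg libraries. With group means of 44.4 ± 3.27 and 82.1 ± 0.591 FPKM (SD, n = 2 per group), Ttn was 1.85-fold lower, a log2 change of -0.87 ± 0.09 (SE; limma, adjusted p = 0.0057). Annotated coding transcripts of Ttn range from 271 to 106824 bases, so its FPKM depends on which isoforms the authors' assembly assigned the fragments to. The gene (ENSMUSG00000051747.14) lies on chromosome 2 at 76703980 to 76982547 of GRCm38. Without WT replicate 2 the call of Ttn was lost (limma adjusted p = 0.052) at a log2 change of -0.88. Tcap, which anchors pairs of titin molecules at the Z-disc, measured 533 and 454 FPKM in Cdk8Tg against 1791 and 1554 FPKM in WT. No library of one group came near the other. The log2 change was -1.76 ± 0.13 (SE; limma, adjusted p = 0.0035), the lowest of all 31 genes. Tcap (ENSMUSG00000007877.2) has a single annotated transcript of 948 bases, on chromosome 11 at 98383811 to 98384953. Its call held under all 15 alternatives. Rbm20 and Rbm24, splicing factors that act on titin, were both not called, at log2 changes of -0.09 ± 0.12 and -0.27 ± 0.08 (SE, n = 2 per group). Rbm20 had overlapping groups (limma adjusted p = 0.59). Rbm24 lay nearer the threshold (limma adjusted p = 0.061), at 65.7 and 67.6 FPKM in Cdk8Tg against 78.1 and 82.9 FPKM in WT. Its groups did not overlap, as in 70.3% of all rows. Mybpc3, the cardiac myosin-binding protein C of the thick filament, was at 1351 and 1290 FPKM in Cdk8Tg against 1125 and 1104 FPKM in WT. Its log2 change of 0.24 ± 0.10 did not pass the threshold (limma adjusted p = 0.12), although quantile normalization and equal-sum scaling did call it higher.

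Among the 13 crosslinkers and scaffolds of the Z-disc, 4 rose and 2 fell, 6 were not called and Myoz1 was not tested. Of all rows, 16.9% rose and 7.98% fell. Actn2, the sarcomeric alpha-actinin on which the others assemble, measured 591 and 545 FPKM in Cdk8Tg against 598 and 620 FPKM in WT. Its difference of -0.10 ± 0.09 on the log2 scale was about the size of its standard error, and its sign turned under quantile normalization (0.25) and equal-sum scaling (0.10).

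The falls were the calsarcin gene Myoz2 and the myotilin gene Myot. Myoz2, which tethers calcineurin to alpha-actinin, was at 555 and 549 FPKM in Cdk8Tg against 1187 and 1152 FPKM in WT. Each pair of libraries agreed closely, and the groups were 2.12-fold apart, with a log2 change of -1.08 ± 0.09 (SE; limma, adjusted p = 0.0041). Without WT replicate 2 its call was lost (limma adjusted p = 0.054). Myoz2 (ENSMUSG00000028116.13) lies on chromosome 3 at 123006206 to 123035015. Myot, an actin-bundling Z-disc protein far more abundant in skeletal muscle, was at 2.03 and 1.18 FPKM in Cdk8Tg against 4.91 and 4.48 FPKM in WT. All 4 values are low, and the step-based depth puts about 30.1 to 147 fragments behind each. The log2 change was -1.15 ± 0.18 (SE; limma, adjusted p = 0.014), a call lost without WT replicate 1, without WT replicate 2 and with no filter. Myoz1, the calsarcin of fast skeletal muscle, was at 1.07 and 0.554 FPKM in Cdk8Tg against 0.293 and 0.468 FPKM in WT, with about 5.28 to 17.1 fragments behind each value.

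The rises were the adaptor genes Pdlim1 and Pdlim7, the nebulette gene Nebl and filamin C (Flnc). Pdlim1, a PDZ-LIM adaptor that binds alpha-actinin also outside muscle, was at 76.8 and 98.1 FPKM in Cdk8Tg against 55.9 and 46.3 FPKM in WT. Its log2 change was 0.76 ± 0.15 (SE; limma, adjusted p = 0.024), and 23.5% of its 31-base stretches also occur in other annotated genes, so its value is uncertain. Pdlim7, another PDZ-LIM adaptor, was at 56.4 and 60.6 FPKM against 36.7 and 39.0 FPKM. Both pairs were tight, and the log2 change was 0.62 ± 0.08 (SE; limma, adjusted p = 0.011). Nebl, the cardiac relative of nebulin, was at 85.2 and 82.4 FPKM in Cdk8Tg against 61.5 and 59.3 FPKM in WT, a log2 change of 0.47 ± 0.08 (SE; limma, adjusted p = 0.016). It was the smallest called rise, 1.39-fold. Annotated coding transcripts of Nebl range from 393 to 8079 bases, so its FPKM too depends on the isoforms assigned. Flnc, an actin crosslinker of the Z-disc periphery and of sites of muscle damage, was at 48.5 and 57.0 FPKM against 34.0 and 28.0 FPKM. It was 1.70-fold higher, with a log2 change of 0.75 ± 0.13 (SE; limma, adjusted p = 0.017). The highest smooth muscle and fibroblast sums fell in Cdk8Tg replicate 2, the library in which Pdlim1, Flnc and Pdlim7 were also highest. Nebl was highest in Cdk8Tg replicate 1. Without Cdk8Tg replicate 2, Pdlim1 and Flnc lost their calls, at log2 changes of 0.59 and 0.64. Without it the log2 changes of Pdlim7 and Nebl were 0.57 and 0.49. The part of smooth muscle cells and fibroblasts was not tested. Without WT replicate 2 none of the 4 rises was called (limma adjusted p = 0.069 to 0.13). Without WT replicate 1 only Flnc was called, and with no filter Pdlim1 and Flnc were not.

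Of the PDZ-LIM genes, Pdlim5 was at 296 and 322 FPKM in Cdk8Tg against 326 and 367 FPKM in WT, with a log2 change of -0.16 ± 0.10 and no call. That sign turned under quantile normalization (0.12) and equal-sum scaling (0.03). Pdlim3, the actinin-associated LIM protein, was at 17.4 and 35.7 FPKM in Cdk8Tg against 13.9 and 9.09 FPKM in WT. The Cdk8Tg libraries thus differed more from each other than the lower of them did from WT. Its log2 change of 1.09 ± 0.35 was the largest increase of the 31 but did not pass (limma adjusted p = 0.076). Without Cdk8Tg replicate 1 the value was 1.58 and was called, and without Cdk8Tg replicate 2 it was 0.59 and was not. Ldb3 (cypher, the cardiac PDZ-LIM protein needed for Z-disc integrity) had overlapping groups, at 493 and 443 FPKM against 485 and 379 FPKM. Mypn, which links titin, nebulette and alpha-actinin, was at 22.4 to 23.5 FPKM in all 4 libraries, and Synpo2l, an actin-bundling Z-disc protein, at 30.7 to 35.9 FPKM. Neither was called.

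The intermediate filament genes, which tie neighbouring Z-discs together, gave 1 rise of 2. Of all rows, 16.9% rose. Des (desmin) was at 829 and 1036 FPKM in Cdk8Tg against 799 and 780 FPKM in WT. The groups did not overlap, but Cdk8Tg replicate 1 lay close to WT, and the log2 change of 0.23 ± 0.13 was not called (limma adjusted p = 0.24). It was called with quantile normalization (0.67; limma adjusted p = 0.036), with equal-sum scaling (0.43; 0.048) and without Cdk8Tg replicate 1 (0.39; 0.036). Synm (synemin), the large desmin partner that links the filaments to the membrane, was at 2.68 and 4.02 FPKM against 1.39 and 1.64 FPKM. It was 2.21-fold higher, with a log2 change of 0.77 ± 0.18 (SE; limma, adjusted p = 0.034). This call was lost after median-of-ratios scaling (limma adjusted p = 0.050) and quantile normalization (0.064), as well as with no filter and without each of Cdk8Tg replicate 2, WT replicate 1 and WT replicate 2.

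In the M-band, a single myomesin fell, where 7.98% of all rows did. Myom2, the myomesin of fast fibres and of the adult heart in rodents, was at 138 and 124 FPKM in Cdk8Tg against 313 and 363 FPKM in WT. The lowest WT library was still more than both Cdk8Tg libraries together. The change was 2.58-fold, -1.36 ± 0.11 on the log2 scale (SE; limma, adjusted p = 0.0041), and its call held under all 15 alternatives. Myom2 (ENSMUSG00000031461.4) has 1 annotated coding transcript of 5075 bases, on chromosome 8 at 15057653 to 15133541. Myom1, the myomesin found in all striated muscle, was at 343 and 356 FPKM against 395 and 349 FPKM, so that its groups overlapped. Its log2 change was -0.09 ± 0.10 (limma adjusted p = 0.54), a sign that turned under quantile normalization (0.20) and equal-sum scaling (0.11). Myom3, the third family member and mainly a skeletal muscle gene, was at 0.985 and 1.07 FPKM in Cdk8Tg against 0.559 and 0.388 FPKM in WT, below the level for testing. About 30.2 to 71.0 fragments lay behind each of these values. Obsl1, a partner of titin and myomesin, was at 18.2 to 19.2 FPKM in all 4 libraries and was not called.

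At the thin filament ends, 1 of 5 genes fell and none rose, against 7.98% and 16.9% of all rows. Lmod2, the leiomodin that lengthens thin filaments in the heart, was at 217 and 251 FPKM in Cdk8Tg against 321 and 391 FPKM in WT. The groups stayed apart, but the spread within each was wide, and the log2 change was -0.60 ± 0.13 (SE; limma, adjusted p = 0.030). That call was lost with quantile normalization (limma adjusted p = 0.12), equal-sum scaling (0.058) and no filter (0.085), and without Cdk8Tg replicate 1 (0.066), WT replicate 1 (0.070) or WT replicate 2 (0.16). Tmod1, the tropomodulin that caps the pointed end and opposes leiomodin there, was at 114 and 99.6 FPKM against 123 and 114 FPKM and was not called. Of its 31-base stretches 39.8% also occur in other genes, mostly in Tstd2 on the opposite strand. Lmod3 was at 71.9 and 62.8 FPKM against 67.4 and 55.2 FPKM, with overlapping groups. The barbed-end capping protein genes Capzb and Capza2, whose product anchors thin filaments in the Z-disc, were at 157 to 178 and at 87.4 to 94.5 FPKM. Their log2 changes were 0.12 ± 0.08 and 0.05 ± 0.08, and the signs of Lmod3, Capzb and Capza2 all turned after median-of-ratios scaling.

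Of the assembly factors, 2 of 3 rose, against 16.9% of all rows. Unc45b, the muscle chaperone that folds the myosin head together with Hsp90, was at 167 and 134 FPKM in Cdk8Tg against 80.5 and 77.5 FPKM in WT. The groups were 1.91-fold apart, with a log2 change of 0.91 ± 0.12 (SE; limma, adjusted p = 0.0099). Without WT replicate 1 or WT replicate 2 it was no longer called, with limma adjusted p of up to 0.077. Smyd1, a muscle methyltransferase required for sarcomere assembly, was at 286 and 276 FPKM against 206 and 182 FPKM. Its log2 change was 0.53 ± 0.10 (SE; limma, adjusted p = 0.019), and this call too was lost without WT replicate 1 (0.070), without WT replicate 2 (0.13) and with no filter (0.054). Smyd2, a methyltransferase that also binds Hsp90 and titin, was at 79.2 and 82.5 FPKM against 72.6 and 77.0 FPKM and was not called. Its exons share 30.0% of their bases with Gm37422 on the opposite strand. On GRCm38, Unc45b lies on chromosome 11 at 82910550 to 82943403 and Smyd1 on chromosome 6 at 71213940 to 71322233. Annotated coding transcripts of Smyd1 range from 376 to 3361 bases, so its FPKM also depends on the isoforms assigned.

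The muscle RING finger genes, which encode ubiquitin ligases that bind titin and tag sarcomere proteins, gave 1 fall of 3. Of all rows, 7.98% fell. Trim54 was at 41.5 and 41.9 FPKM in Cdk8Tg against 52.7 and 58.8 FPKM in WT. This 1.34-fold fall was the smallest called, at -0.41 ± 0.09 on the log2 scale (SE; limma, adjusted p = 0.028). Leaving out any single library ended the call (limma adjusted p = 0.062 to 0.16), as did equal-sum scaling (0.099) and no filter (0.059), and 26.6% of its exon bases overlap Gm15469 on the opposite strand. Trim63 (MuRF1), a ligase known for its rise in muscle atrophy, was at 141 and 122 FPKM against 121 and 161 FPKM. Trim55, its close relative, was at 42.4 to 47.3 FPKM in all libraries. Both had overlapping groups, with log2 changes of -0.09 ± 0.16 and -0.01 ± 0.09.

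Ratios between genes of the same library do not change when a library is multiplied by 1 factor, as in median-of-ratios and equal-sum scaling. They do change under quantile normalization. Most of the ratios computed were set apart by group, as were 70.3% of all single rows, so separation alone is not particular to these pairs. They are given here on the deposited values. These ratios were chosen after the values had been seen and carry no test, and an exact permutation test of 2 against 2 libraries cannot go below 0.333. Tcap per Actn2 was 0.903 and 0.833 in Cdk8Tg and 2.99 and 2.50 in WT. Myoz2 per Actn2 was 0.940 and 1.01 against 1.98 and 1.86. Relative to alpha-actinin transcripts, both of these Z-disc partners were thus lower in each Cdk8Tg library than in each WT library. Ttn per Actn2 was 0.0791 and 0.0772 against 0.138 and 0.132. Mybpc3 per Ttn was 28.9 and 30.6 against 13.6 and 13.5, a 2.19-fold higher ratio in Cdk8Tg. Within paralog families, Myom2 per Myom1 was 0.402 and 0.347 in Cdk8Tg and 0.793 and 1.04 in WT. Pdlim7 per Pdlim5 was 0.191 and 0.188 against 0.113 and 0.106. In both pairs each Cdk8Tg library lay on the same side of each WT library. Annotated coding transcripts range from 365 to 1915 bases for Pdlim7, 669 to 5016 for Pdlim5 and 576 to 3013 for Actn2. Ratios with these genes thus also depend on the isoforms assigned. After quantile normalization the log2 changes of Pdlim7 and Pdlim5 were 0.58 and 0.12, closer together than the 0.62 and -0.16 on the deposited scale. Capzb per Capza2, the subunits of 1 heterodimer, was 1.88 and 1.88 against 1.85 and 1.73, so that even this nearly flat ratio did not overlap. Trim63 per Trim55 was 2.98 and 2.88 against 2.75 and 3.48, with the groups overlapping.

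**Figure D3:**
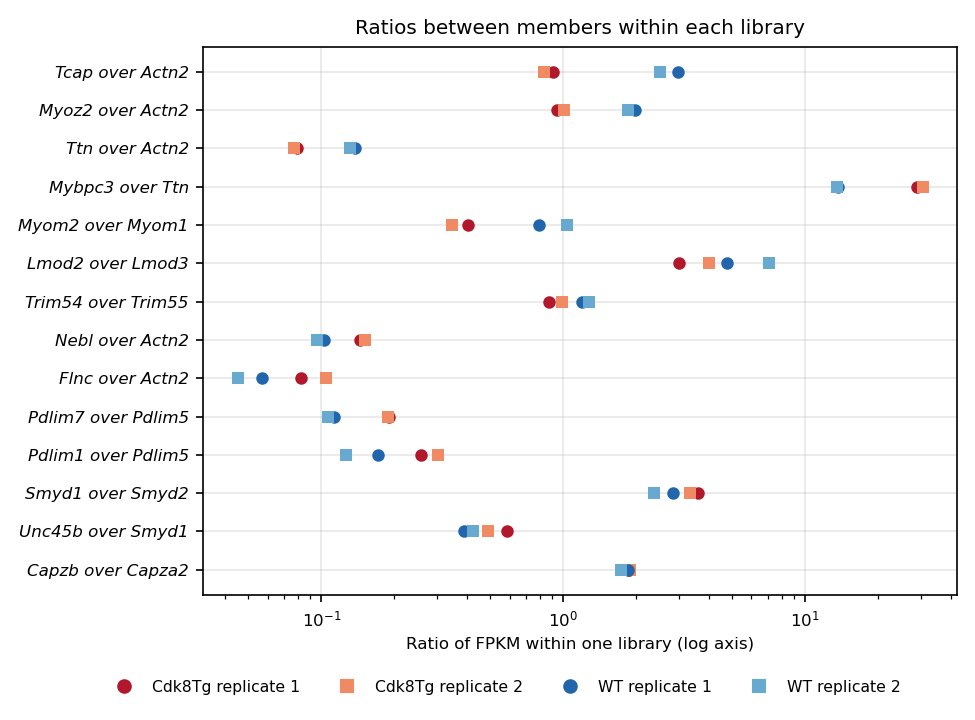
Ratio of the FPKM of 2 genes within each library (log axis), with red and orange symbols for Cdk8Tg, dark and light blue for WT, circles for replicate 1 and squares for replicate 2. The groups lie far apart for Tcap, Myoz2 and Ttn relative to Actn2 and for Mybpc3 over Ttn, and close together for Capzb over Capza2.

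The calls of 11 of the 14 genes did not depend on the scaling. Besides the deposited scale, the fit was run with median-of-ratios scaling, quantile normalization (8 rises and 6 falls, against 8.34% and 8.74% of all rows) and an equal FPKM sum per library (12 rises and 5 falls, against 41.2% and 5.49%). Of the 7 falls, 5 kept their call under all 3 (Tcap, Myom2, Myot, Myoz2 and Ttn), and of the 7 rises 6 did (Unc45b, Pdlim1, Flnc, Pdlim7, Smyd1 and Nebl). Lmod2, Trim54 and Synm were the exceptions. None of the 14 called genes changed sign under any of these scalings. The other fits of the deposited values moved the background as well. With pseudocounts of 0.1 and 5, 17% and 16.2% of all rows were higher and 8% and 7.85% lower, and 7 of these genes rose and 7 fell with each. A variance without a trend gave 15.2% higher and 7.18% lower, a robust variance 18.1% and 8.38%, and the replicate number as a term 15.6% and 8.16%, again with 7 rises and 7 falls each. At a minimum of 5 FPKM, 6 of 29 tested genes rose and 6 fell, against 21.1% and 10.9% of the rows. The share of rises was then near that of all rows. With no filter, 3 of 33 rose (Unc45b, Pdlim7 and Nebl) and 4 fell (Tcap, Myom2, Myoz2 and Ttn), against 3.57% and 2.31%. Leaving out Cdk8Tg replicate 1 gave 9 rises and 5 falls, against 12.9% and 7.14%, and leaving out Cdk8Tg replicate 2 gave 4 and 6, against 5.91% and 5.06%. Leaving out WT replicate 1 gave 1 rise (Flnc) and 4 falls, against 3.02% and 2.26%, and leaving out WT replicate 2 gave 0 rises and 2 falls (Tcap and Myom2), against 1.22% and 1.19%.

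**Figure D4:**
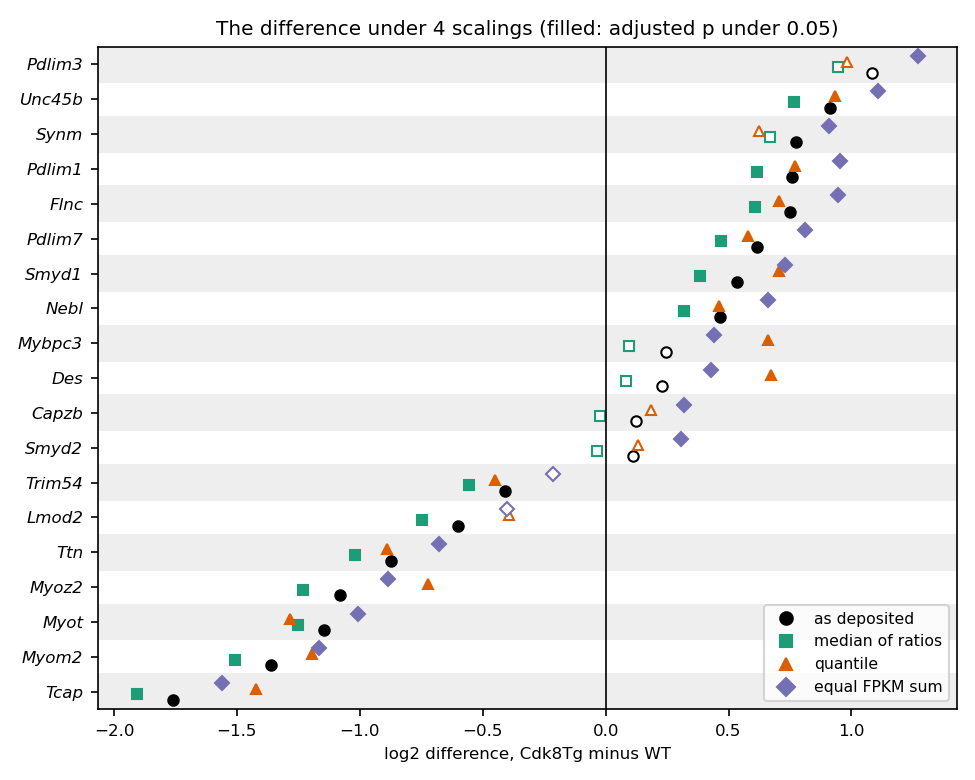
Log2 difference between Cdk8Tg and WT under 4 scalings for the 19 genes called under at least 1 of them. Filled symbols have an adjusted p under 0.05 and open symbols do not. Genes from Ttn down to Tcap are filled throughout, whereas Mybpc3, Des, Capzb, Smyd2 and Pdlim3 are filled only for quantile or equal-sum scaling.

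The authors' deposited table of their own comparison, which was made with Cuffdiff, gave 5 of these genes as higher and 6 as lower at q under 0.05. Over the 12393 genes it tested, 5.53% were higher and 8.43% lower. Group values in the authors' deposited table were, in FPKM, 563 in Cdk8Tg and 2123 in WT for Tcap, and 149 and 430 for Myom2. That table and the limma fit shared 10 calls: 4 rises (Pdlim1, Flnc, Synm and Unc45b) and 6 falls (Tcap, Myom2, Myot, Myoz2, Lmod2 and Trim54). Pdlim3 was called only in the authors' deposited table (q = 8.6e-04), and Ttn (q = 0.068), Pdlim7 (q = 0.11), Nebl (q = 0.28) and Smyd1 (q = 0.24) only by limma.

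Further genes of the same structures, 71 in a fixed list, also went both ways. That list too was chosen with earlier results of these data known. Of 64 tested, 14 rose (21.9%, against 16.9% of all rows) and 11 fell (17.2%, against 7.98%), with a median log2 change of 0.16. Among 35 tested Z-disc and I-band genes 7 rose and 6 fell. Ankrd1, a stretch-responsive partner of titin, was at 1492 and 2842 FPKM in Cdk8Tg against 534 and 364 FPKM in WT. Sorbs2, an adaptor of the Z-disc and intercalated disc, was at 133 and 144 FPKM against 53.6 and 46.4 FPKM. The actinin paralog Actn1 of non-muscle cells rose by 1.32 on the log2 scale, Csrp1 by 1.11 and Pdlim2 by 0.58. Fblim1, Pdlim4, Cmya5 and Ablim1 changed by -1.24, -2.02, -1.02 and -0.61. In the M-band and thick filament list 4 of 8 tested genes fell and none rose. Among them were Ckm (the M-band-bound muscle creatine kinase) at -0.64, Speg at -0.42 and Lrrc39 at -0.35. These 3 calls were lost with no filter and without either WT library, those of Speg and Lrrc39 also with equal-sum scaling and without Cdk8Tg replicate 2, and that of Ckm also with quantile normalization. Lrrc39 further lost its call without a variance trend (limma adjusted p = 0.063) and with the replicate block (0.059). Speg was not past the threshold in the authors' Cuffdiff comparison (q = 0.14). Among 19 tested genes of thin filament ends and turnover, 7 rose and 1 fell. The fall was Tmod4, a tropomodulin of skeletal muscle, at 1.13 and 0.727 FPKM in Cdk8Tg against 9.60 and 7.36 FPKM in WT. Hsp90aa1, the Hsp90 isoform that works with Unc45b, was at 176 and 272 FPKM against 59.6 and 58.8 FPKM. Capza1 rose by 0.81, Cap2 by 0.58, Trim32 by 0.58 and Smyd4 by 0.62 on the log2 scale. In the authors' Cuffdiff comparison Cap2 (q = 0.10), Trim32 (q = 0.12) and Smyd4 (q = 0.063) were not past the threshold, nor was Pdlim2 (q = 0.22). Of the called genes named from these lists, Sorbs2, Fblim1, Pdlim4, Cmya5 and Tmod4 kept their call under every alternative run, and each of the others lost it at least without WT replicate 2. Fbxo32 (atrogin-1), which like Trim63 marks muscle atrophy and was named after its values were seen, had overlapping groups at 32.7 and 36.0 FPKM against 22.4 and 44.7 FPKM.

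The 33 genes are spread over 15 chromosomes, and few are neighbours. Myoz1 and Synpo2l lie 2406 bases apart on chromosome 14 with no coding gene between them, yet stood at most at 1.07 FPKM and at least at 30.7 FPKM, respectively. Des and Obsl1 lie 110731 bases apart on chromosome 1, with 4 coding genes between them, and neither was called.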

How the data were processed

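The libraries were stranded TruSeq libraries of polyadenylated RNA from frozen ventricles, per the labels' protocols. The submitters' processing notes name TopHat (1.0.0), Cufflinks, Cuffdiff and the mm10 build; which annotation, strand setting and scaling between libraries were used is not given there. The authors deposited FPKM per gene and library, and a comparison with an FPKM per group, a p-value and a q-value per the file headers. FPKM are not counts, so limma 3.58.1 (R 4.3.3) was run on log2(FPKM + 1) over all 4 libraries, with trended empirical Bayes variance, 2 residual degrees of freedom, two-sided tests and Benjamini-Hochberg adjustment over the 11888 rows with a mean of at least 1 FPKM; fold changes on this scale understate the change of low genes. SE values are limma's, with n = 2 per group, and intervals of sampling cannot be given for FPKM. The procedure was also run on simulated data with independent noise and few changed genes. That setting differs from these libraries, so it does not give their error rates. Sample groups came from the titles. The members, their roles and the lists were chosen with earlier results of these data known. Named were Cdk8, all 33 members and, from each further list, up to 5 called rises and 5 called falls with the smallest p; Rbm20, Rbm24 and Fbxo32 were added after their values were seen. Some genes that this rule names are not reported here. Gene positions, transcript lengths, exon overlaps and shared 31-base stretches came from GENCODE M21 (GRCm38, the build mm10 names). Alternatives were other pseudocounts (0.1 and 5), no filter or a minimum of 5 FPKM, 3 scalings, variance without a trend or robust, a replicate block, each library left out in turn and the authors' own calls. Depth was read from steps between values under 0.1 FPKM in genes with 1 transcript over 800 bases, of which 63.9% to 71.2% lay within 0.15 of a whole number of fragments.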

Additional observations from a re-analysis of the deposited data

How the results depend on the processing

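Groups of 2 libraries leave 2 residual degrees of freedom, or 1 with a library left out, and the lone library of a group is then assumed to vary like the other group. The 7 rises and 7 falls stayed 7 and 7 with the replicate block, both other pseudocounts and either other variance estimate. The titles do not say what the replicate numbers stand for. Deviations of equal numbers correlated at -0.026 across 11888 rows, but with 1 difference per group this cannot exclude a shared batch. The replicate block changed no call of the 14. It left 10 falls among the further genes, where 8.16% of all rows were lower, and ended the call of Lrrc39 (limma adjusted p = 0.059). With no filter, 17947 rows were tested, of which 3.57% were higher and 2.31% lower, and 3 rises and 4 falls passed the threshold. Among the further pathway genes there were then 4 and 7. With the filter there were 14 and 11, where 16.9% and 7.98% of all rows were called. With an equal FPKM sum there were 12 rises of 31 (26 of 64 among the further genes), where 41.2% of all rows were higher, and the authors' comparison gave 6 rises among the further genes, where 5.53% of all genes were higher. Leaving out 1 library gave 0 to 9 rises and 2 to 6 falls, and 1 to 19 rises and 5 to 12 falls among the further genes. The lowest counts came without WT replicate 2, where Tcap and Myom2 alone kept their call, and without WT replicate 1 there were 1 rise and 4 falls. The cause was not tested. Genes that changed sign were all uncalled. With median-of-ratios scaling these were Ldb3 (-0.025), Synpo2l (-0.12), Obsl1 (-0.092), Lmod3 (-0.0084), Capzb (-0.023), Capza2 (-0.094) and Smyd2 (-0.034). Quantile normalization turned Actn2 (0.25), Pdlim5 (0.12), Synpo2l (-0.048), Myom1 (0.20) and Obsl1 (-0.052). With an equal sum Actn2 (0.10), Pdlim5 (0.035), Mypn (0.15), Myom1 (0.11), Tmod1 (0.045), Trim55 (0.18) and Trim63 (0.11) turned. The authors' values turned Ldb3 (-0.041), Synpo2l (-0.13), Obsl1 (-0.11), Lmod3 (-0.020), Capzb (-0.031), Capza2 (-0.11) and Smyd2 (-0.046). With a library left out, Ldb3 ranged from -0.054 to 0.30, Synpo2l from -0.07 to 0.12, Myom1 from -0.18 to 0.0019, Lmod3 from -0.0039 to 0.28, Trim55 from -0.089 to 0.065 and Trim63 from -0.29 to 0.11. Myot and Synm have no value at a minimum of 5 FPKM. Depth limits Myoz1, Myom3, Myot and Synm most.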
